A study of Rattus norvegicus with 158 samples.

Results

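Insulin receptor signalling was followed through 5 genes in rat thigh muscle, a skeletal muscle: Insr, Irs1, Irs2, Pik3r1 and Akt2. They were chosen by name, and each was read from the probe set that the platform annotation assigned to that gene alone and that had the highest mean over all arrays. The 5 genes stood among 14217 genes measured in this way, and 9 probe sets of 31099 belonged to them. Male Sprague-Dawley rats, 6 to 8 weeks old when purchased, had received 1 compound at 1 dose daily by oral gavage, or its vehicle alone, and muscle was taken after 3 d or 5 d. Of all arrays, 122 came from rats given 1 of 21 compounds and 36 from vehicle controls.

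In CMC the rats received Glyburide (1500 mg/kg), Chlorpropamide (269 mg/kg), Atenolol (1000 mg/kg), Azaribine (750 mg/kg), Buspirone (196 mg/kg), Famotidine (1200 mg/kg), Flunarizine (126 mg/kg), Guanethidine (132 mg/kg), Levosulpiride (1200 mg/kg), Pentoxifylline (1170 mg/kg), Spironolactone (300 mg/kg) or Sulpiride (1000 mg/kg). In Water they received Dexchlorpheniramine (47 mg/kg), Dicyclomine (645 mg/kg), Etidronate (1005 mg/kg), Gabapentin (2500 mg/kg), Losartan (1000 mg/kg), Oxybutynin (230 mg/kg), Paroxetine (104 mg/kg), Phenytoin (572 mg/kg) or Trimethadione (535 mg/kg). Each compound had 6 arrays, 3 per time, apart from Dicyclomine with 4, Glyburide with 5 and Paroxetine with 5. Controls were 12 arrays for CMC (7 at 3 d and 5 at 5 d), 18 for Water (9 per time) and 6 at 5 d for the mixture CMC/SDS/Povidone, in which none of the compounds was given.

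Insulin binds the insulin receptor, a tyrosine kinase at the cell surface, which phosphorylates the docking proteins Irs1 and Irs2. These recruit phosphatidylinositol 3-kinase through its regulatory subunit, encoded by Pik3r1, and the lipid it makes brings Akt2 to the membrane, where Akt2 directs glucose transporters to the surface of muscle fibres and favours glycogen synthesis. Skeletal muscle takes up much of the glucose cleared after a meal. Glyburide and Chlorpropamide are sulfonylureas, drugs that close a potassium channel of pancreatic beta cells and so raise the secretion of insulin.

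RNA had been extracted on 7 dates, called batches A to G in their order. The labels placed 30 arrays in batch D, all from treated rats, and vehicle controls in batches A, B, C and E. The same 12 CMC controls served all CMC compounds and the same 18 Water controls all Water compounds, so comparisons within a vehicle were not independent. For 8 compounds (Glyburide, Chlorpropamide, Atenolol, Buspirone, Guanethidine, Levosulpiride, Pentoxifylline and Flunarizine) no CMC control lay in their batches, and for these, batch and compound cannot be told apart without a model that ties the batches together. The 12 muscle fibre genes checked, such as Acta1 and Ckm, had mean log2 levels of 12.73 to 13.87 over treated arrays outside and within batch D and 12.28 to 13.85 over the CMC and Water controls. Since whole muscle was sampled, fewer cells of a type and less RNA per cell cannot be told apart.

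The promoter windows of 4 of the 5 genes were found in the RefSeq table (assembly GRCr8), and those of the 2 genes called in any compound and of the receptor are shown, as the stretch from which each transcript starts. Irs1 lies on chromosome 9 (minus strand), and its window spans chr9:91053910-91054209. Insr lies on chromosome 12 (minus strand, chr12:6128754-6129053), and Akt2 on chromosome 1 (plus strand, chr1:92021667-92021966). Each window holds 250 bases before the transcript start in that table and 50 after it, written 5′ to 3′. In Akt2 and Insr that start lies inside the gene's full span (92004705 to 92061420 on chromosome 1 and 5991135 to 6129275 on chromosome 12), so the span extends further upstream than the window's start. The windows are shown with capitals for a match to the forkhead core TGTTTAC, the motif read by Foxo factors.
Irs1: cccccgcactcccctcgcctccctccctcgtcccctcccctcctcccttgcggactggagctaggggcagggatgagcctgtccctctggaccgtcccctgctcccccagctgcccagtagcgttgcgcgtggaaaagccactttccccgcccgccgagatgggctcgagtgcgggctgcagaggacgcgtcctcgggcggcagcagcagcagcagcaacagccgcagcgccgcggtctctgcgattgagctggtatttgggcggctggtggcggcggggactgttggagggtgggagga
Insr: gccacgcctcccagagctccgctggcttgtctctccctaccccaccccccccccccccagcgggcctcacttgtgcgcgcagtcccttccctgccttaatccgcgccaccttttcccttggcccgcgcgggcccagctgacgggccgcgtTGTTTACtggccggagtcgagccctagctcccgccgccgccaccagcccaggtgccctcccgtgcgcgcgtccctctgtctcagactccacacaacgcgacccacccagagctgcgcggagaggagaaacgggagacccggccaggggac
Akt2: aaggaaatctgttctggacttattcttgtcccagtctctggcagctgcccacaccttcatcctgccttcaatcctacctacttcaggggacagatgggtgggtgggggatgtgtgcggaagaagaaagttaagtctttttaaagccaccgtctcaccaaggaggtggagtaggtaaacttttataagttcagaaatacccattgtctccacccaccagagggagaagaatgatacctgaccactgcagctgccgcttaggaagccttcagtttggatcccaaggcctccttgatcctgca
The forkhead core matched in Insr alone of the 4 windows, starting 100 bases upstream of its start in that table, and 3.78% of 33469 promoter windows held it on either strand. The E-box CACGTG (6.42% of all windows), the sterol element TCACNCCAC (1.12%) and the glucocorticoid element (0.0149%) had no match on either strand in the 4 windows. A match is a description of the letters only. The windows were 70.3% G and C in Irs1, 71.3% in Insr, 75.3% in Pik3r1 and 49.7% in Akt2, against a median of 51.7% over all windows.

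Whether the compounds changed the 5 genes was asked by comparing each compound with the controls of its own vehicle, with time as a covariate. Calls required a fold of at least 1.5 and, over the 14217 genes of that compound, a limma p adjusted by Benjamini-Hochberg of at most 0.01. A change is the treated minus the control level in log2 units, given with its standard error. Irs1 was called lower in 9 of 21 compounds and Akt2 in 5 of 21, and neither was called higher in any. Irs2, Insr and Pik3r1 were called in none of the 21 compounds, where their unadjusted p fell under 0.05 in 6, 4 and 2 compounds. Over all genes and compounds, 0.949% of pairs were called lower and 0.688% higher.

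**Figure D1:**
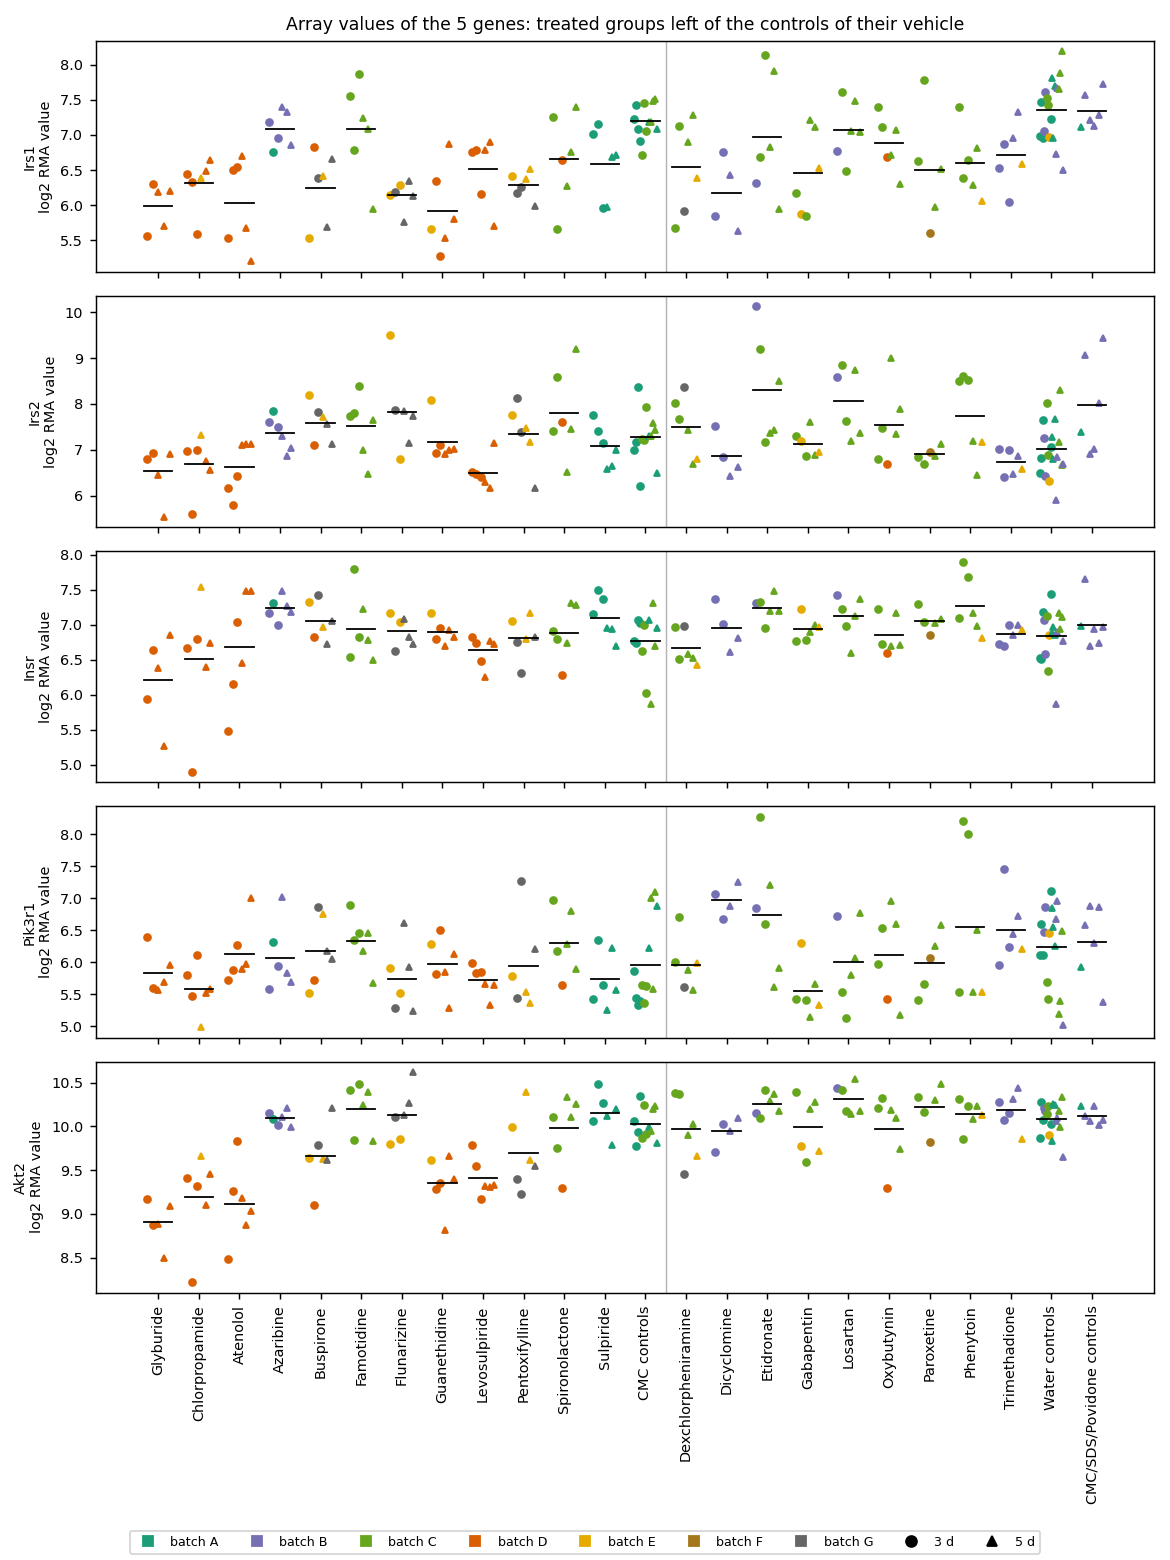
Log2 RMA values of the 5 genes (1 panel each) on every array, by compound with the controls of its vehicle to the right of each block, coloured by extraction batch, circles for 3 d, triangles for 5 d and a black line at the group mean. Irs1 lay at 5.56 to 6.30 in Glyburide, below the 6.71 to 7.51 of the CMC controls, and all Akt2 values of 9.18 or less belong to batch D.

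Among the receptor and its docking proteins, Irs1 moved most often. Irs1 is the docking protein on which insulin signalling to glucose uptake in muscle mainly rests. The mean level of Irs1 over all arrays was 6.70, at percentile 48.7 of the genes and just below the median gene at 6.8. In Glyburide, the 2 arrays at 3 d read 5.56 and 6.30 and the 3 at 5 d read 6.19, 5.71 and 6.20. In Chlorpropamide, Irs1 read 6.45, 6.33 and 5.59 at 3 d and 6.39, 6.49 and 6.65 at 5 d. The 12 CMC controls lay at 6.71 at the lowest, 7.19 at the median and 7.51 at the highest. No array of either sulfonylurea reached the lowest control, as was so for 2.35% of all genes in Glyburide and 1.13% in Chlorpropamide. Irs1 fell by 1.23 ± 0.14 in Glyburide (limma adjusted p = 6.28e-05), to 0.427 of the control level, where 2.86% of all genes were called lower. In Chlorpropamide it fell by 0.90 ± 0.13 (adjusted p = 0.000351), to 0.537 of control, where 1.86% of genes were called lower.

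The remaining 7 compounds with Irs1 called lower were not sulfonylureas. Guanethidine, a blocker of adrenergic neurons, had values of 5.28, 5.73 and 6.87 (lowest, median and highest of 6 arrays), 1 of which lay within the control range, and the change of Irs1 was -1.29 ± 0.18 (adjusted p = 0.000128, background 2.52% called lower). Dicyclomine, an antimuscarinic, had 4 arrays between 5.64 and 6.76, against 6.50 to 8.19 in the 18 Water controls, and Irs1 changed by -1.19 ± 0.24 (adjusted p = 0.00155, background 2.76%). Dicyclomine was the only one of the 9 with controls in its own batch. Atenolol, a beta blocker, lay at 5.20, 6.09 and 6.70, just below the lowest CMC control (1.62% of genes lay wholly below), and its change was -1.17 ± 0.20 (adjusted p = 0.000788, background 2.97%).

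Flunarizine, a calcium channel blocker, had Irs1 at 5.76, 6.17 and 6.34. Its change was -1.06 ± 0.12 (adjusted p = 0.000199), in a compound with 0.0703% of genes called lower. In Pentoxifylline, a phosphodiesterase inhibitor, Irs1 lay at 5.99, 6.31 and 6.52 and changed by -0.91 ± 0.11 (adjusted p = 0.0028), and 0.0141% of genes were called lower. Both compounds thus had few genes called beside Irs1, and neither had an array within the control range, as was so on the low side for 0.134% of genes in Flunarizine and 0.162% in Pentoxifylline. In Buspirone, a serotonin receptor agonist, Irs1 changed by -0.95 ± 0.17 (adjusted p = 0.00646, background 0.394%), and in Levosulpiride, a dopamine receptor blocker, by -0.68 ± 0.16 (adjusted p = 0.0055, background 3.54%). In these 2 compounds the treated and control ranges overlapped.

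In the other 12 compounds Irs1 was not called. The changes were -0.89 ± 0.20 in Gabapentin (adjusted p = 0.0221), -0.85 ± 0.27 in Paroxetine, -0.81 ± 0.22 in Dexchlorpheniramine, -0.75 ± 0.21 in Phenytoin, -0.64 ± 0.19 in Trimethadione and -0.61 ± 0.17 in Sulpiride. Smaller differences were measured for Irs1 in Spironolactone (-0.55 ± 0.19), Oxybutynin (-0.47 ± 0.20), Etidronate (-0.39 ± 0.26), Losartan (-0.28 ± 0.20), Azaribine (-0.13 ± 0.12) and Famotidine (-0.11 ± 0.20). Over the 21 compounds the median change of Irs1 was -0.81, whereas the median over all genes of a compound lay between -0.01 and 0.03. The share of genes called in either direction in these 12 compounds was 0.0422% in Azaribine, 0% in Dexchlorpheniramine, 2.48% in Etidronate, 0.00703% in Famotidine, 0.429% in Gabapentin and 0.809% in Losartan. It was 0.0844% in Oxybutynin, 0.682% in Paroxetine, 0.317% in Phenytoin, 0% in Spironolactone, 0.183% in Sulpiride and 0.457% in Trimethadione. Counted over these comparisons with shared controls, 6 genes of 14217, Irs1 among them, were called lower in 9 or more compounds, and the highest number for any gene was 12. As many compounds as for Akt2, 5 or more, were reached by 164 genes.

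The order of Irs1 levels placed all 3 kinds of control at the top, at 7.35 ± 0.45 (SD, n = 18) for Water, 7.34 ± 0.26 (n = 6) for CMC/SDS/Povidone and 7.19 ± 0.24 (n = 12) for CMC. Famotidine (7.08 ± 0.67), Azaribine (7.08 ± 0.26) and Losartan (7.07 ± 0.43) followed within 1 SD of the CMC controls. The lowest group means of Irs1 were those of Guanethidine (5.92 ± 0.59), Glyburide (5.99 ± 0.33), Atenolol (6.03 ± 0.63) and Flunarizine (6.14 ± 0.20). Neighbours in this order differed by less than the larger of their SDs throughout.

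**Figure D2:**
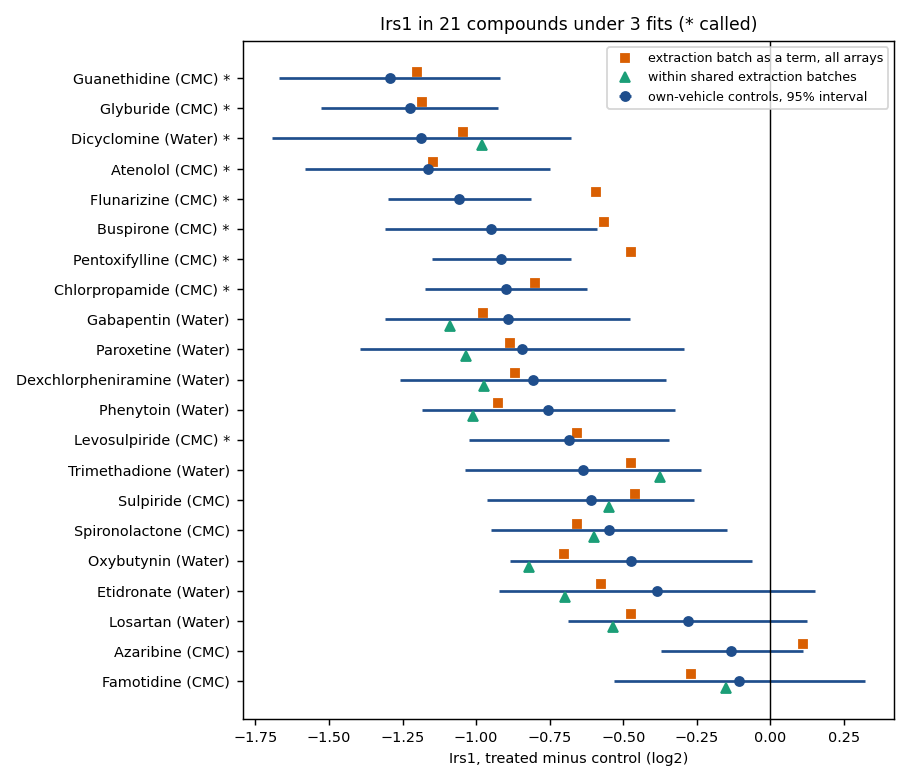
Irs1 change (log2, treated minus control) in 21 compounds, with 95% intervals for the comparison with all own-vehicle controls (circles), the value with extraction batch as a term in 1 fit of all arrays (squares) and the value within shared extraction batches (triangles, 12 compounds). Circles run between -1.29 in Guanethidine and -0.11 in Famotidine, and the squares of Flunarizine, Buspirone and Pentoxifylline lie nearer to 0 than their circles.

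CMC-treated arrays averaged 6.21, 6.19 and 6.16 for Irs1 in batches D, E and G, which held no CMC control. In batches A, B and C they averaged 6.61, 7.14 and 6.89. Water-treated arrays averaged 6.50 in B, 6.86 in C and 6.28 in E, and the single ones of D, F and G read 6.69, 5.60 and 5.92. The cause of these differences was not tested. In 1 fit of all arrays without batch, Irs1 was called lower in 6 compounds, Flunarizine, Levosulpiride and Pentoxifylline being lost. With extraction batch as a term in that fit, it was called in Dicyclomine alone (-1.04, adjusted p = 0.00862). In the other 8 compounds the adjusted p lay between 0.0554 and 0.999. The values of Irs1 with batch as a term were -1.18 in Glyburide, -0.80 in Chlorpropamide, -1.20 in Guanethidine, -1.15 in Atenolol and -0.66 in Levosulpiride, whereas those of Flunarizine (-0.59), Buspirone (-0.56) and Pentoxifylline (-0.47) were closer to 0. Batch D was tied to the other batches in this fit by the 5 compounds with arrays in D and elsewhere, of 8 in D. Each tie rested on a single array. Buspirone, Oxybutynin and Spironolactone had 1 array in D, and Chlorpropamide and Guanethidine 1 outside it. In Glyburide Irs1 moved only from -1.23 to -1.18, while the limma adjusted p rose from 6.28e-05 to 0.352. A call lost in this fit therefore need not mean a smaller difference. In the 12 compounds with at least 2 treated and 2 control arrays in shared batches, the change of Irs1 within those batches ran between -1.09 and -0.15, with a median of -0.76. It was called in 1 of them, Gabapentin, at -1.09 (adjusted p = 0.00273), where 0.148% of genes were called lower.

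A fit of any compound against all controls, with batch, vehicle and time as terms and the animal study as a random block, was added after the values had been seen. In it the difference of Irs1 was -0.58 ± 0.12 with a 95% interval of -0.81 to -0.35 (limma adjusted p = 0.000187), just under the fold of 1.5. At an adjusted p of 0.01 and no fold limit, 2.68% of genes were lower in this fit, and 61 genes had a lower value than Irs1. Insr was 0.28 ± 0.09 higher (adjusted p = 0.0335), Irs2 0.29 ± 0.16 (adjusted p = 0.271), Pik3r1 0.09 ± 0.15 (adjusted p = 0.771) and Akt2 0.09 ± 0.06 (adjusted p = 0.428).

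Irs2, the second docking protein, had its highest values in Etidronate, a bisphosphonate. Its Etidronate arrays read 10.13, 9.19 and 7.17 at 3 d and 7.37, 7.44 and 8.51 at 5 d, against 5.91, 6.87 and 8.31 (lowest, median and highest) in the 18 Water controls. Of the 6 arrays, 3 exceeded the highest control. The change of Irs2 was 1.29 ± 0.35 (adjusted p = 0.018), which missed the call. In 1 fit of all arrays it was called both without batch (1.29, adjusted p = 0.00182) and with batch as a term (1.22, adjusted p = 0.00688). Within shared batches it was 1.19 (adjusted p = 0.188).

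In Losartan, an angiotensin receptor blocker, Irs2 read 8.59, 8.86 and 7.62 at 3 d and 7.20, 8.75 and 7.36 at 5 d, and the difference from Water controls was 1.05 ± 0.29 (adjusted p = 0.0589). At the other end, Irs2 was 0.77 ± 0.24 lower in Levosulpiride (adjusted p = 0.0282), and the sulfonylureas had differences of -0.70 ± 0.29 in Glyburide (adjusted p = 0.12) and -0.58 ± 0.28 in Chlorpropamide (adjusted p = 0.18). With batch as a term these 3 values of Irs2 turned to 0.15, 0.21 and 0.22. Over the 21 compounds the median change of Irs2 was 0.11. The group means of Irs2 ran between 8.30 ± 1.19 (SD) in Etidronate and 6.50 ± 0.34 in Levosulpiride, with CMC controls at 7.27 ± 0.58, Water controls at 7.02 ± 0.61 and CMC/SDS/Povidone controls at 7.98 ± 1.08, and neighbours in the order differed by less than the larger of their SDs.

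Insr, the receptor itself, passed the threshold in no compound. Glyburide had Insr values of 5.94 and 6.64 at 3 d and 6.38, 5.27 and 6.85 at 5 d. Chlorpropamide had 6.67, 4.90 and 6.80 at 3 d and 7.54, 6.40 and 6.74 at 5 d, against 5.87, 6.86 and 7.31 (lowest, median and highest) in the CMC controls. The lowest array of each sulfonylurea, 5.27 and 4.90, lay under every control, the highest of Chlorpropamide (7.54) above every control, and the rest within the control range. The difference of Insr was -0.54 ± 0.25 in Glyburide (adjusted p = 0.167) and -0.28 ± 0.28 in Chlorpropamide (adjusted p = 0.558). Without the Chlorpropamide array at 4.90, the difference in that compound was 0.055. When single arrays were left out, the difference in Glyburide ran between -0.69 and -0.32. In the other compounds the changes of Insr ran between -0.17 in Dexchlorpheniramine and 0.47 in Azaribine. By group mean, Insr was highest in Phenytoin (7.27 ± 0.43) and lowest in Glyburide (6.22 ± 0.63), with the CMC controls at 6.76 ± 0.43 and the Water controls at 6.84 ± 0.37, and neighbours in the order lay within the larger of their SDs. A second Insr probe set followed the first with r = 0.57 over all arrays and was called in 0 compounds. Its differences ran between -0.57 in Atenolol (limma adjusted p = 0.00626, short of the fold limit) and 0.30 in Etidronate. They were -0.56 in Glyburide, -0.47 in Chlorpropamide, -0.46 in Levosulpiride, -0.35 in Guanethidine and -0.35 in Flunarizine. Lower values of this probe set were thus not particular to the sulfonylureas.

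Pik3r1 encodes the regulatory subunit p85 alpha of phosphatidylinositol 3-kinase. Its differences ran between -0.69 ± 0.27 in Gabapentin (adjusted p = 0.227) and 0.73 ± 0.32 in Dicyclomine (adjusted p = 0.117), with a median of -0.06. In Glyburide, Pik3r1 read 6.39 and 5.60 at 3 d and 5.56, 5.70 and 5.95 at 5 d, and in Chlorpropamide 5.80, 5.47 and 6.11 at 3 d and 4.99, 5.52 and 5.58 at 5 d. The 7 CMC controls at 3 d lay between 5.33 and 5.86, and the 5 at 5 d read 6.22, 7.00, 5.58, 7.10 and 6.88. The controls of the later time were thus mostly the higher ones. Accordingly the Pik3r1 differences were 0.47 at 3 d and -0.82 at 5 d in Glyburide, and 0.27 at 3 d and -1.19 at 5 d in Chlorpropamide. The product of time and treatment was -1.29 ± 0.42 in Glyburide (adjusted p = 0.428) and -1.47 ± 0.38 in Chlorpropamide (adjusted p = 0.837), and over CMC and Water controls together the 5 d minus 3 d difference of Pik3r1 was 0.31 ± 0.23 (adjusted p = 0.973). The group means of Pik3r1 ran between 6.97 ± 0.25 in Dicyclomine and 5.55 ± 0.40 in Gabapentin, with CMC controls at 5.96 ± 0.67 and Water controls at 6.24 ± 0.64, and again no neighbours lay further apart than the larger of their SDs.

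Time altered none of the 5 genes past an adjusted p of 0.05 in any of the 21 compounds, where 0.223% of all gene and compound pairs passed. The lowest adjusted p for the product of time and treatment was 0.324 for Irs2, 0.428 for Pik3r1, 0.606 for Insr, 0.628 for Akt2 and 0.688 for Irs1. Irs2 in Phenytoin, an anticonvulsant, differed from controls by 1.55 at 3 d and -0.09 at 5 d, and this gave the lowest of them. Between the CMC and Water controls, no gene of the 5 differed by vehicle (limma adjusted p of 0.731 or more) or by time (0.973 or more). The CMC/SDS/Povidone controls were not part of this comparison.

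Akt2 is the Akt kinase that links the pathway to glucose uptake. In Glyburide its arrays read 9.17 and 8.87 at 3 d and 8.89, 8.50 and 9.09 at 5 d. In Chlorpropamide they read 9.41, 8.22 and 9.32 at 3 d and 9.66, 9.10 and 9.45 at 5 d, against 9.77, 9.97 and 10.35 (lowest, median and highest) in the CMC controls. All arrays of both sulfonylureas lay below every CMC control, as did 2.35% of all genes in Glyburide and 1.13% in Chlorpropamide. Akt2 changed by -1.11 ± 0.12 in Glyburide (adjusted p = 3.19e-05), to 0.463 of control, and by -0.84 ± 0.16 in Chlorpropamide (adjusted p = 0.00202), to 0.557 of control. The remaining calls were in Atenolol (-0.91 ± 0.15, adjusted p = 0.000517), Guanethidine (-0.67 ± 0.12, adjusted p = 0.000776) and Levosulpiride (-0.61 ± 0.10, adjusted p = 0.00046). In the other 16 compounds the change of Akt2 lay between -0.37 in Buspirone and 0.23 in Losartan. By group mean the same 5 compounds held the bottom of the order, with Glyburide lowest at 8.91 ± 0.26 and Levosulpiride at 9.41 ± 0.22, and the top was Losartan at 10.32 ± 0.17, with Water controls at 10.09 ± 0.18 and CMC controls at 10.03 ± 0.19. Neighbours in this order, too, differed by less than the larger of their SDs.

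**Figure D3:**
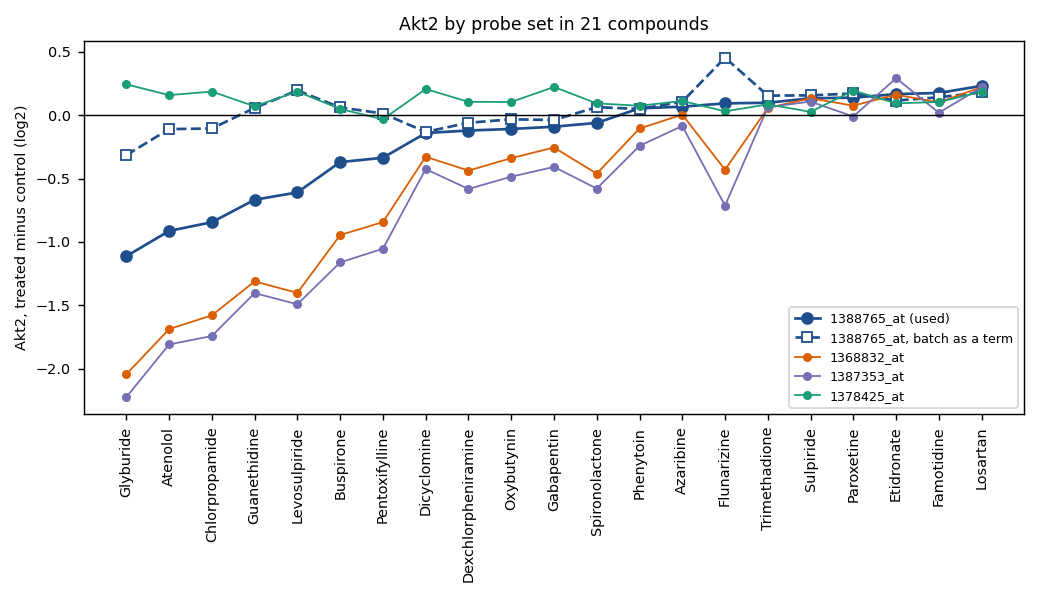
Akt2 change (log2, treated minus own-vehicle control) by probe set in 21 compounds, ordered by the probe set used, whose value with extraction batch as a term is shown with open squares. In Glyburide the set used read -1.11, the further sets -2.04 (orange), -2.22 (purple) and 0.24 (green), and the open square lies at -0.32.

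The 5 compounds with Akt2 called were those that had all or 5 of their 6 arrays in extraction batch D. The 29 CMC arrays of batch D averaged 9.18 for Akt2, and CMC-treated arrays of the other batches had batch means between 9.80 and 10.16. The single Oxybutynin array of batch D read 9.30, whereas the other 5 lay above it. With batch as a term, Akt2 was called in 0 compounds, and its values were -0.32 in Glyburide, -0.11 in Chlorpropamide, -0.11 in Atenolol, 0.06 in Guanethidine and 0.20 in Levosulpiride. RNA quality was read from Gapdh, as the log2 level of the control probe set at its 3′ end minus that at its 5′ end. This difference was 0.489 ± 0.557 (SD, n = 30) in batch D, against 0.187 ± 0.050 in the CMC controls. It exceeded 1 on 3 arrays, of Glyburide (3.02), Chlorpropamide (1.58) and Atenolol (1.26). Without these 3 arrays Akt2 was still called in the 5 compounds. The median Gapdh difference was 0.354 in batch D, against 0.192 in the CMC controls and 0.205 in treated arrays of other batches. The larger difference in batch D was thus not confined to the 3 arrays. Leaving them out did not remove it, and its part in the Akt2 values was not tested.

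The probe sets of Akt2 disagreed. Besides the set used there were 3 others. One followed the set used with r = 0.93 over all arrays (0.82 after batch means were subtracted) and changed by -2.04 in Glyburide and -1.58 in Chlorpropamide, with Buspirone (-0.95) called beside the 5 compounds. Another followed it with r = 0.89 (0.73) and changed by -2.22 in Glyburide and -1.74 in Chlorpropamide. It was also called in Buspirone (-1.16) and in Flunarizine (-0.71, adjusted p = 0.00479), which had no array in batch D. The last did not follow it (r = -0.12), and its values were 0.24 in Glyburide and 0.19 in Chlorpropamide, with 0 compounds called.

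Cell type markers moved in the same comparisons, and their part in the changes of Irs1 and Akt2 was not tested. The mean level of 6 smooth muscle genes ran between 8.36 and 9.27 in Glyburide and 8.36 and 8.97 in Chlorpropamide, against 8.90 to 10.21 in the CMC controls. That of 10 tendon and fibroblast genes ran between 8.53 and 9.36 in Glyburide and 8.37 and 10.73 in Chlorpropamide, against 9.20 to 10.94. The mean of 5 red blood cell genes ran between 6.62 and 7.01 in Glyburide and 6.74 and 7.89 in Chlorpropamide, against 7.04 to 7.79, so that Glyburide lay wholly below the controls. In other CMC compounds of batch D, the medians of the smooth muscle, tendon and red blood cell lists were 8.74, 9.12 and 6.87. They were 8.89, 9.19 and 6.8 in Glyburide and 8.68, 9.03 and 6.94 in Chlorpropamide, so these levels were not particular to the sulfonylureas. Called lower were Acta2, Smtn and Hbb in Glyburide, Acta2, Tagln and Col1a1 in Chlorpropamide, and 5 tendon and 4 smooth muscle genes in Levosulpiride. Of 12 muscle fibre genes, 0 were called in either sulfonylurea. Fat cell genes ran between 7.22 and 9.46 in Glyburide, 6.83 and 7.99 in Chlorpropamide and 6.87 and 9.63 in the CMC controls.

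Whether the sulfonylureas stood apart from other drugs was asked on compound means, with the 2 sulfonylureas against the other 10 compounds given in CMC. All 5 genes had lower means in the sulfonylureas, and none passed the threshold in limma, as was so for all 14217 genes (0% called). The unadjusted p was under 0.05 for 2 of the 5, Insr and Akt2. Insr averaged 6.37 ± 0.20 (SD, n = 2) in the sulfonylureas and 6.92 ± 0.18 (n = 10) in the other compounds, a difference of -0.55 with a 95% interval of -0.83 to -0.26 (limma adjusted p = 0.106). These means include the Glyburide and Chlorpropamide arrays with a Gapdh difference over 1. Akt2 averaged 9.06 ± 0.19 in the sulfonylureas and 9.78 ± 0.39 in the other compounds, a difference of -0.72 (-1.29 to -0.15, adjusted p = 0.166). The difference was -0.64 for Irs2 (-1.28 to 0.00, adjusted p = 0.251), -0.31 for Irs1 (-0.90 to 0.29, adjusted p = 0.551) and -0.29 for Pik3r1 (-0.64 to 0.06, adjusted p = 0.324).

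Batch D allowed a comparison within the same extraction date, with 10 sulfonylurea arrays and 19 arrays of other CMC compounds. Each array counted as a unit, with no term for compound or animal study. The intervals and p-values here therefore measure the spread between arrays, not between compounds. No gene of the 14217 was called (0%), and the intervals of 4 of the 5 genes included 0, with an unadjusted p under 0.05 for Insr alone. Insr averaged 6.26 ± 0.68 in sulfonylurea arrays and 6.70 ± 0.46 in the others, a difference of -0.44 ± 0.20 (95% interval -0.85 to -0.03, adjusted p = 0.578). Of these arrays, 1 of each sulfonylurea had a Gapdh difference over 1. Leaving out 1 sulfonylurea array at a time, the difference of Insr ran between -0.52 and -0.30. Akt2 differed by -0.26 (-0.54 to 0.02, adjusted p = 0.578), Irs2 by -0.21 (-0.59 to 0.18, adjusted p = 0.677), Pik3r1 by -0.12 (-0.41 to 0.16, adjusted p = 0.735) and Irs1 by -0.09 (-0.51 to 0.33, adjusted p = 0.887). Glyburide and Chlorpropamide had been given at different doses, so their values stand side by side and were not compared with each other.

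**Figure D4:**
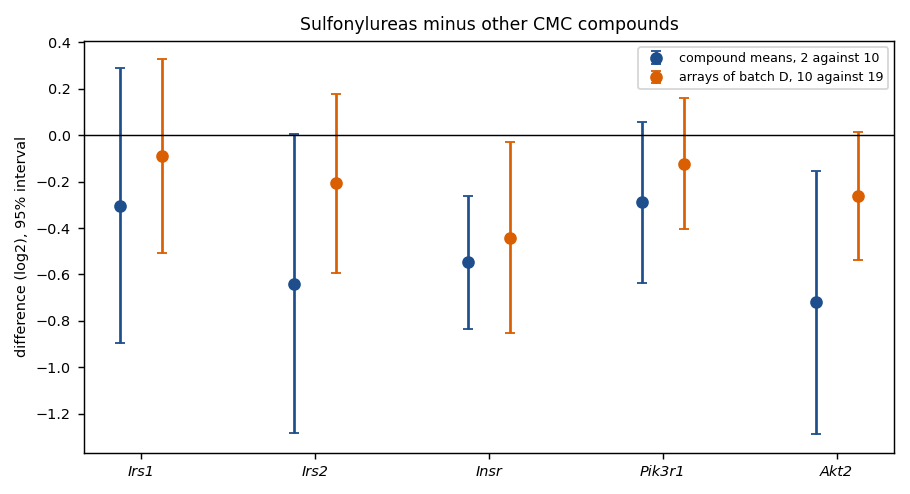
Difference of the sulfonylureas from other CMC compounds (log2) for each gene with its 95% interval, on compound means (2 against 10) and on arrays of batch D (10 against 19). The points for Irs1 lie at -0.31 and -0.09, and those for Insr at -0.55 and -0.44.

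Other genes of the insulin pathway were taken from lists grouped by role, of which 71 besides the 5 were measured. In Glyburide 4 of the 71 (5.63%) were called lower and 0 higher, against 2.86% and 1.24% of all genes, with a median change of -0.10 over the list and 0.03 over all genes. In Chlorpropamide 2 (2.82%) were called lower and 0 higher, against 1.86% and 1.32% of all genes, with medians of -0.11 and 0.01. Hk2, the hexokinase that traps glucose in muscle fibres, fell by 2.29 ± 0.24 in Glyburide (adjusted p = 2.8e-05) and by 1.56 ± 0.25 in Chlorpropamide (adjusted p = 0.000757). Grb10, an adaptor that binds the receptor and dampens its signal, fell by 1.19 ± 0.18 in Glyburide (adjusted p = 0.000543) and by 0.89 ± 0.20 in Chlorpropamide (adjusted p = 0.00726). Gys1, the muscle glycogen synthase, fell by 1.12 ± 0.23 (adjusted p = 0.00428) and Slc2a4, the insulin-regulated glucose transporter, by 0.66 ± 0.16 (adjusted p = 0.00999) in Glyburide. With batch as a term none of these 6 calls was kept, and Hk2 stood at -0.21 in Glyburide and 0.35 in Chlorpropamide, Grb10 at -0.74 and -0.48, Gys1 at -0.51 and Slc2a4 at 0.05.

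Across the 21 compounds, Hk2 was called lower in 6 compounds and Grb10 in 6. Beside the sulfonylureas, Grb10 was called in Atenolol, Dicyclomine, Guanethidine and Levosulpiride. With batch as a term its values there ran between -0.514 in Dicyclomine and -0.145 in Levosulpiride, and none of the 6 Grb10 calls was kept. Hk2 was called in Atenolol, Buspirone, Guanethidine and Levosulpiride beside the sulfonylureas, with the lowest change in Atenolol (-1.91), and with batch as a term its values there lay between 0.04 and 0.25. Foxo1, a transcription factor that Akt keeps out of the nucleus, rose by 1.11 ± 0.09 in Etidronate, by 1.07 ± 0.11 in Losartan, by 0.85 ± 0.15 in Gabapentin and by 0.70 ± 0.12 in Paroxetine (adjusted p of 0.00306 or less), and the first 3 of these calls held with batch as a term. Its relative Foxo3 was called higher in Etidronate (0.83), Losartan (0.79), Gabapentin (0.65) and Atenolol (0.69), of which the Gabapentin and Atenolol calls were lost with batch as a term. Trib2, a pseudokinase, fell by 1.28 in Etidronate, 1.23 in Losartan and 1.08 in Gabapentin. Eif4ebp1, a brake on translation, rose by 1.89 ± 0.22 in Dicyclomine, by 0.97 in Etidronate and by 0.90 in Trimethadione, and the Trimethadione call was lost with batch as a term. Srebf1, a factor of lipid synthesis, rose by 1.27 in Oxybutynin, 0.94 in Trimethadione and 0.90 in Etidronate, and here too the Trimethadione call was lost. Pdk4, which restrains glucose oxidation, rose by 1.91 in Gabapentin and by 1.56 in Etidronate, and neither call held with batch as a term (2.08 and 1.55). In Etidronate 6 of the 71 genes (8.45%) were called higher and 2 (2.82%) lower, against 0.872% and 1.6% of all genes. In Losartan 3 (4.23%) were called higher and 2 (2.82%) lower, against 0.591% and 0.218%, and in Gabapentin 3 (4.23%) and 1 (1.41%), against 0.253% and 0.176%. Of the 71 genes, 26 (36.6%) were called in at least 1 compound, against 16.3% of all genes. Since the list was chosen with earlier results known, these shares are a description.

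**Figure D5:**
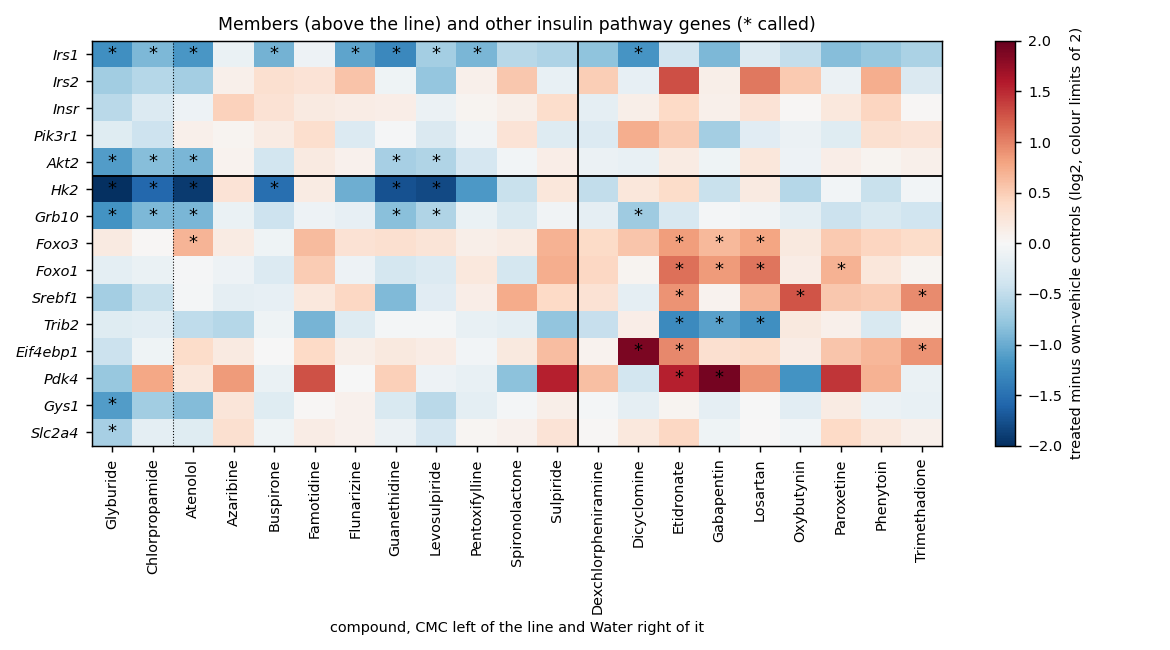
Colour map of log2 changes, treated minus own-vehicle controls, for the 5 genes (above the line) and 10 other insulin pathway genes (below it) in 21 compounds, with CMC compounds left of the vertical line and an asterisk for a call. Irs1 has 9 asterisks and Akt2 5, while Irs2, Insr and Pik3r1 have 0, and Hk2 reaches -2.29 in Glyburide.

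The 5 genes varied together only in part. Over the 122 treated and 36 control arrays, which share batches and normalization, r was 0.52 between Irs1 and Akt2 (0.29 after batch means were subtracted), 0.47 between Insr and Akt2 (0.31) and 0.47 between Irs2 and Insr (0.39). Irs1 and Irs2 had r = 0.10 (-0.04), and Pik3r1 had r of 0.20 or less with each of the other 4. Among genes at or above the median level, those most like Irs1 were Prkab2, a subunit of the AMP-activated kinase (r = 0.72, or 0.56 after batch means were subtracted), Lman1 (0.70, or 0.60) and Smyd1, a methyltransferase of muscle (0.70, or 0.61). Irs2 was most like Coq10b (0.72), Nr4a3 (0.71) and Nr4a1 (0.69), of which Nr4a1 and Nr4a3 are orphan nuclear receptors, and these values changed little after batch means were subtracted (0.66, 0.66 and 0.63). Insr was most like Mmut, a mitochondrial mutase (r = 0.76), Cdadc1 (0.75) and Bfar (0.73). Akt2 was most like Nudt3 (0.89), Ywhae (0.89) and R3hdm2 (0.87), which became 0.67, 0.67 and 0.59 after batch means were subtracted. Pik3r1 had no closer likeness than r = 0.52 with Ypel3, 0.50 with Ncl and 0.50 with Ehmt2.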

How the data were processed

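Probe set levels had been measured on Affymetrix rat arrays, and the deposited table held log2 values that the authors had made by RMA, which corrects background, equalises array distributions and summarises probes. RMA is the name in the submitters' processing notes. The paper's methods describe frozen RMA (frma), with probe effects estimated beforehand on a random draw of arrays from the same collection, and which of these made the deposited table was not settled. No detection calls were used, and the number of arrays limits the precision. RMA compresses changes of dim transcripts.

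Of 31099 probe sets, 20826 had 1 gene symbol, and the brightest per gene gave 14217 genes. Each compound was fitted against its vehicle controls with time as a covariate (limma 3.58.1, R 4.3.3). The comparison, the correction for time and the thresholds follow the study's methods. Those describe t-tests for each compound, whereas limma's moderated test was used here. For 1 CMC control the title gave 5 d and other labels 3 d, and it was taken as 3 d. Extraction batch entered as a term in 1 fit of all arrays with compound, vehicle and time. Sulfonylureas were compared on compound means and within batch D. The fits were tested on simulated data. The labels do not say whether replicates came from separate animals, so p-values measure the spread between arrays, which may be partly technical.

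The members and lists were chosen with earlier results of these data known. Named pathway genes were the 8 called in most compounds, with ties settled by the larger mean absolute log2 change, and all called in a sulfonylurea. Pdk4 took the last place in such a tie. For each member the 3 genes with the highest r were named. Promoters came from RefSeq. Alternatives are given in the closing section.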

Additional observations from a re-analysis of the deposited data

Results flagged for a closer look

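In 3 of 25 pairs of a gene and a control group, 1 array lay far from the rest by Dixon's ratio of its gap to the whole range, and chance gives about 1 in 20. Insr read 5.87 on Water 5 d replicate 4, with the nearest of 9 arrays at 6.77. Irs2 read 6.49 on CMC 5 d replicate 5, with the nearest of 5 arrays at 7.30. Insr read 7.65 on CMC/SDS/Povidone 5 d replicate 2, with the nearest of 6 arrays at 6.98.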

How the results depend on the processing

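Most calls changed with extraction batch. A joint fit of all arrays without batch called Irs1 lower in 6 compounds (9 in separate fits), Akt2 in 5 and Irs2 higher in 1. With batch as a block in it the counts were 1, 0 and 1. In Glyburide, Irs1 was -1.18 and Akt2 -0.32, neither called, and Irs2 turned to 0.21, Insr to 0.12 and Pik3r1 to 0.51. In Chlorpropamide, Irs1 was -0.80 and Akt2 -0.11, not called, and Irs2 turned to 0.22, Insr to 0.30 and Pik3r1 to 0.20. Akt2 turned to 0.057 in Guanethidine and 0.20 in Levosulpiride, and Irs2 in Levosulpiride to 0.15. Within shared batches Irs1 was called lower in 1 of 12 compounds, Gabapentin, and with all controls in 1 of the same 12, Dicyclomine, and none of the 5 compounds with Akt2 called could be fitted. With controls of the same animal study (3 compounds) Irs1 was called in 0, against 1 of the same 3. With hybridization period as a block (16 compounds), Irs1 was called lower in 1, against 6 of the same 16. All CMC controls were of period 1, where Chlorpropamide, Guanethidine and Flunarizine had 1 array each. The values of these compounds in this fit therefore rest on that array, and lost calls of Irs1 or Akt2 there decide nothing. In Chlorpropamide (5 d replicate 1) they were -0.95 for Irs1, -0.42 for Akt2, 0.057 for Irs2, 0.69 for Insr and -1.35 for Pik3r1. The cause of these changes was not tested.

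The Akt2 probe set with r = -0.12, in place of the one used, gave 0.24 in Glyburide, 0.19 in Chlorpropamide, 0.16 in Atenolol, 0.07 in Guanethidine and 0.19 in Levosulpiride, and 0 calls. At an adjusted p of 0.05 with no fold limit, Irs2 was higher in 1 and lower in 1. Without the 3 arrays with a Gapdh difference over 1, an alternative chosen after seeing the data for the compounds, Insr was 0.055 in Chlorpropamide, and Irs2 in the sulfonylureas minus other CMC compounds of batch D was 0.007. Leaving out 1 array at a time (73 refits of compounds), Insr in Chlorpropamide ran from -0.46 to 0.055, the highest without 3 d replicate 2. Of other uncalled values, Insr in Glyburide ran from -0.69 to -0.32, Pik3r1 in Glyburide from -0.53 to -0.10 and Irs2 in Chlorpropamide from -0.70 to -0.34.

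Single arrays ended other calls. Irs1 missed the threshold in Buspirone without 5 d replicate 1 (-0.97), 3 d replicate 1 (-0.80) or 5 d replicate 2 (-0.82), in Dicyclomine without 3 d replicate 1 (-1.09) or 5 d replicate 2 (-0.98), in Levosulpiride without 5 d replicate 3 (-0.51) or 3 d replicate 3 (-0.61), and in Pentoxifylline without 5 d replicate 1 (-0.92), 3 d replicate 2 (-0.90) or 5 d replicate 3 (-0.84). Akt2 missed it in Guanethidine without 5 d replicate 1 (-0.56) and in Levosulpiride without 3 d replicate 3 (-0.55). Irs2 in Etidronate was called without 3 d replicate 3 (1.55). By the methods' test, a t-test without limma's moderation, Irs1 was called lower in 6 compounds, against 9. It was not called in Buspirone, Levosulpiride and Pentoxifylline. The filter at the median gene removed Irs1 and Pik3r1, so it gave no value for them.

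No paired analysis was possible because the labels give no replicate number, and the numbers used here follow the order of deposit only. Under array median centring, all 49 results kept direction and side of the threshold. Under quantile normalization 48 of 49 did, the exception being Akt2 in Levosulpiride (-0.56).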
